A study of Mus musculus with 6 samples.

Results

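The enzymes described here make serine and asparagine, carry one-carbon units on folate and turn homocysteine into cysteine. They are the products of 10 genes, Phgdh, Psat1, Psph, Shmt1, Shmt2, Mthfd1, Mthfd2, Cbs, Cth and Asns. Every non-control probe that the array annotation assigns to these gene names was taken, on all 6 arrays, whatever its values. This gave 15 probes for 10 genes, out of 41174 probes for 29742 gene names on the array. Psph, Shmt1 and Mthfd1 had 2 probes each, Phgdh had 3 and the other 6 genes had 1. For a gene with several probes, the probe with the highest mean intensity over the 6 arrays leads the description and is called its lead probe.

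Primary fibroblasts were grown from mouse embryos at E15, either wild type or homozygous for a Wrn allele that lacks part of the helicase domain (WrnΔhel/Δhel, WS in the sample labels and mutant here). Wrn encodes a RecQ-type DNA helicase and exonuclease, and loss of its human counterpart causes Werner syndrome. Treated cells were exposed for 1 hour to 0.5 mM H2O2 in the medium, which was then replaced, and RNA was taken 24 hours later. The study's methods give a mixed strain background for the mice with the deletion and state none separately for wild type. The deletion is in the germline, so that every cell type of a mutant embryo carries it. RNA was compared on two-colour Agilent whole-genome oligonucleotide arrays, where each spot gives a Cy5 and a Cy3 intensity. There were 2 arrays of treated (Cy5) against untreated (Cy3) wild type cells, 2 arrays of treated (Cy5) against untreated (Cy3) mutant cells, and 2 arrays that held untreated cells of both genotypes. The labels call the arrays biological replicates of each group, without saying that they came from separate embryos, so the p-values measure the spread between these arrays.

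Serine is made from the glycolytic intermediate 3-phosphoglycerate in successive steps by Phgdh, Psat1 and Psph. The serine hydroxymethyltransferases, Shmt1 in the cytosol and Shmt2 in mitochondria, split serine into glycine and a one-carbon unit on tetrahydrofolate, and Mthfd1 and Mthfd2 interconvert these folates for the synthesis of nucleotides. Serine is also condensed with homocysteine by Cbs to cystathionine, which Cth cleaves to cysteine, a precursor of glutathione. Asns makes asparagine from aspartate. Several of these genes are known targets of ATF4, a transcription factor that is translated when the kinases of the integrated stress response are active.

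Of the 180 dye readings of the 15 probes (15 probes, 6 arrays, 2 dyes), 178 stood well above background and 0 were saturated. The exceptions were Cth and the dimmer probe of Shmt1 in Cy5 on replicate 2 of the mutant treatment arrays. Feature Extraction had marked between 166 and 9368 of the 41534 non-control spots of an array as outliers, with 22.6% of spots on replicate 2 of the wild type treatment arrays the highest share. Among the 90 member spots, 21 were marked, 9 of them on that array. Marked spots were left out of the fit, so all 3 probes of Phgdh and the probe of Psat1, marked on both wild type arrays, have no fitted value there. The array values below are given with marked spots kept, so that every probe has 6 values. Fold changes, standard errors (SE) and p-values come from the fit without them unless the sentence says otherwise, and a fit from 1 array is named as such.

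The labelled cell type was checked against markers. All 8 fibroblast markers stood well above background in both dyes of every array, with summed Cy3 intensities of 42410 to 80880 on the treatment arrays. The 6 macrophage markers summed to at most 506.8 in any RNA, with 5 or 6 of them well above background in Cy3 on every array. Markers of some other cell types gave higher sums, up to 4529 for skeletal muscle, 4206 for red blood cells and 1960 for hepatocytes. Wrn itself does not test the labels, since the places of its 4 probes relative to the deleted exons are not given in the sources used here. Its lead probe had a log2 ratio of 0.37 (SE 0.16, limma adjusted p = 0.148) on the arrays of untreated cells, and its dimmest probe one of -0.90 (SE 0.16, adjusted p = 0.00964). In bulk RNA, fewer cells of a kind and less RNA per cell cannot be told apart.

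In wild type cells, Cth stood 5.77-fold and Psph 4.11-fold higher in treated than in untreated RNA, 24 hours after H2O2. Treated RNA carried Cy5 on every treatment array. Within 1 genotype, an effect of H2O2 and a probe's preference for 1 dye therefore cannot be told apart. The other enzymes of the group with a log2 ratio above 1 on both arrays were Asns and Mthfd2. In mutant cells no member passed the test, and 0 of all 41052 probes did. The ratios of Psph, Phgdh, Psat1, Shmt2, Mthfd2 and Asns lay below 0 on both mutant arrays after loess. With the arrays only centred on their median and marked spots kept, these ratios lay above 0 on mutant replicate 1 and below 0 on replicate 2. For the difference between the 2 responses limma called 0 of all 40267 probes. The 2 genotypes were separated for 8 of the 10 lead probes (both mutant arrays below both wild type arrays), against 24.1% of all probes, and for 0 in the other direction, against 23.6%. With median centring these numbers were 7, against 18.3% of all probes, and 1, against 19.0%. For 6 lead probes the wild type arrays lay above 0 and the mutant arrays below it, against 5.60% of all probes, and with median centring for 0, against 2.45%.

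**Figure D1:**
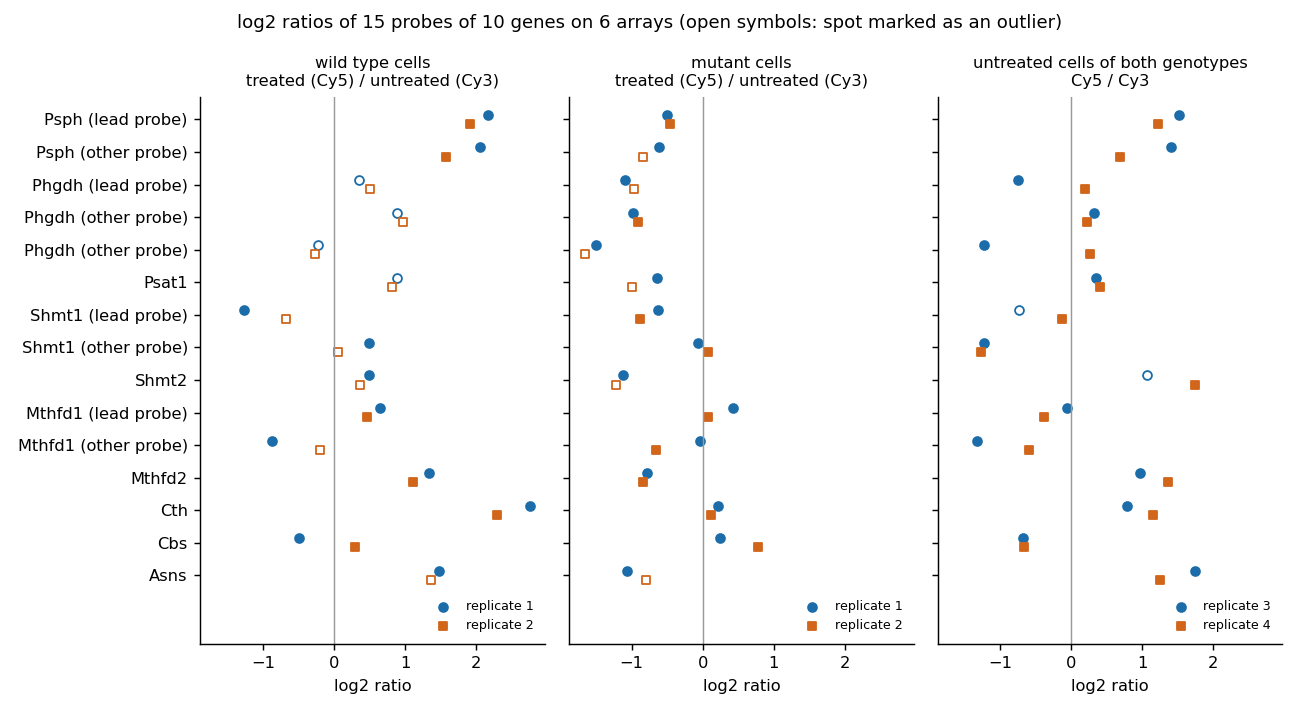
The log2 ratio of Cy5 over Cy3 (horizontal axis) is plotted for each of the 15 probes (rows) on each of the 6 arrays, with 1 panel per group and 1 symbol per array; open symbols are spots marked as outliers. Psph, Mthfd2, Cth and Asns sit above 1 on both wild type arrays, and on the mutant arrays all of them sit below 0.3. The side of 0 on which Psph, Phgdh, Psat1, Shmt2, Mthfd2 and Asns fall on the mutant arrays depends on the loess curve. With median centring their lead probes fall above 0 on mutant replicate 1 and below 0 on replicate 2.

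Among the enzymes of serine synthesis, Psph, the phosphatase of the last step, had the highest wild type ratios. Its lead probe had log2 ratios of 2.16 and 1.92 in wild type cells, against -0.50 and -0.47 in mutant cells. Its second probe gave 2.05 and 1.58, and -0.61 and -0.84. Both probes thus placed the 2 genotypes far apart, with no overlap. In wild type cells the fitted log2 ratio of the lead probe was 2.04 (SE 0.16, limma adjusted p = 0.0238). The second probe gave 1.82 (SE 0.23), which missed the threshold of 0.05 (adjusted p = 0.0521).

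Phgdh is the dehydrogenase that commits 3-phosphoglycerate to serine, and its 3 probes are given in order of mean intensity. Its lead probe gave 0.36 and 0.51 in wild type cells and -1.10 and -0.96 in mutant cells. The second probe gave 0.88 and 0.97, and -0.98 and -0.91. Its dimmest probe gave -0.22 and -0.27, and -1.51 and -1.66. The 3 probes disagreed on the side of 0 in wild type cells, and on each of them both mutant arrays lay below both wild type arrays. With marked spots kept, only the second probe was called in wild type cells (0.93, SE 0.15, adjusted p = 0.0399), and all 6 of these wild type spots were marked.

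Psat1 is the aminotransferase between these steps. Its log2 ratios were 0.88 and 0.81 in wild type cells, both from marked spots, and -0.64 and -0.9996 in mutant cells. With the marked spots kept, the wild type value of 0.85 (SE 0.16) had an adjusted p of 0.0504.

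The promoters of these genes were searched for motifs on both strands, in windows of 250 bases before to 50 bases after the start of transcription taken from RefSeq (GRCm38.p6). Windows were found for 9 of the 10 genes, with a second window for Psat1. Cth had no entry. The antioxidant response element, searched as TGACNNNGC, is bound by the oxidative stress factor NRF2. It occurred in the windows of Psph, Phgdh and Asns, and in 12.4% of all 32851 windows. The stretch of Phgdh is shown because it lies before the start, on the minus strand of chr3:98339988-98340048, with the match (in capitals, on the opposite strand of the gene) at bases -53 to -45.
Phgdh: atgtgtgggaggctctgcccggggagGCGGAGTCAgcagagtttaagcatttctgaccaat
The E-box CACGTG occurred in the window of Cbs and in 7.15% of all windows. A match is a string of letters and no evidence of binding.

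Of the enzymes that load and interconvert folate one-carbon units, the mitochondrial ones had the wider gap between genotypes. Mthfd2, the mitochondrial methylene-tetrahydrofolate dehydrogenase, had log2 ratios of 1.34 and 1.11 in wild type cells and -0.79 and -0.84 in mutant cells. The wild type value of 1.19 (SE 0.17) had an adjusted p of 0.0521. Shmt2 had ratios of 0.49 and 0.37 in wild type cells and -1.12 and -1.22 in mutant cells, so that the genotypes again did not overlap. Its fitted wild type value of 0.46 came from 1 array (SE 0.27, adjusted p = 0.455).

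The cytosolic enzymes had smaller gaps or none. The lead probe of Shmt1 had ratios of -1.27 and -0.68 in wild type cells and -0.64 and -0.89 in mutant cells, and the genotypes overlapped. The second, dimmer probe of Shmt1 gave 0.50 and 0.06, and -0.07 and 0.07. The lead probe of Mthfd1, the trifunctional cytosolic enzyme, gave 0.64 and 0.47, and 0.43 and 0.08, so that its mutant arrays lay lower but on the same side of 0. The second probe of Mthfd1 gave -0.88 and -0.19, and -0.03 and -0.66, on the other side of 0 from the lead probe in wild type cells. None of these 4 probes was called in either genotype.

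The transsulfuration enzymes differed from each other. Cth, the lyase that releases cysteine, had the largest ratios of all 15 probes, 2.75 and 2.30 in wild type cells, against 0.22 and 0.12 in mutant cells. Its fitted log2 ratio in wild type cells was 2.53 (SE 0.18, adjusted p = 0.0229). The size of this dim probe's value moved with the background correction, to 1.93 with normexp and 3.29 with Feature Extraction's own log ratios, and it was called with both. Cbs, the enzyme before it, gave -0.50 and 0.29 in wild type cells and 0.24 and 0.78 in mutant cells. The 2 wild type arrays of Cbs lay on opposite sides of 0, and neither genotype passed the test.

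Asns, the asparagine synthetase, had ratios of 1.48 and 1.37 in wild type cells and -1.06 and -0.80 in mutant cells. The fitted wild type value of 1.44 came from 1 array (SE 0.28, adjusted p = 0.0852). With the marked spots kept it was 1.42 (SE 0.18, adjusted p = 0.0313). The motif TGATGNAA is part of the CARE element (C/EBP-ATF response element), which ATF4 can bind and which the nutrient response of Asns is known for. It occurred in 1 of the 9 member genes with a window, Asns, and in 3.97% of all windows. Both motif matches of the Asns promoter are shown, on the minus strand of chr6:7693210-7693258 for CARE (capitals, bases -23 to -16) and of chr6:7693347-7693407 for the antioxidant response element (capitals, bases -172 to -164, opposite strand).
Asns, CARE: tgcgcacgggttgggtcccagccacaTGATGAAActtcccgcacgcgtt
Asns, antioxidant response element: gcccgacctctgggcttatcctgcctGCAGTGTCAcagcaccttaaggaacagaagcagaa

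Across the group, limma called 2 of the 11 member probes with a fitted value in wild type cells at an adjusted p under 0.05, both higher, against 0.258% of all 40303 probes tested (0.119% higher). At an unadjusted p under 0.05 there were 8 of 11, 6 of them higher, against 20.0% and 9.98%. With marked spots kept it called 6 of 15, all higher, against 2.39% of all probes (1.17% higher). These were both probes of Psph, the second probe of Phgdh, Mthfd2, Cth and Asns. The median log2 ratio of the lead probes was 0.86 over the 8 with a fitted value and 0.70 over all 10 with marked spots kept, against -0.01 and 0.00 over all probes. The count rests on the shared estimate of the spread. Without either of the arrays of untreated cells it was 8, of which 3 had 1 array, against 22.8% of all probes. Without any 1 of the 4 treatment arrays limma called no probe of the whole array, members included. The median of the fibroblast markers was -1.06 here (6 of 8 with a value, 0 called), against -0.05 in mutant cells, and their part in the result was not tested.

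In mutant cells limma called 0 of the 15 member probes and 0 of all 41052 probes, where the lowest adjusted p was 0.155. Before adjustment, 9 member probes had a p under 0.05, all lower, against 12.0% of all probes in either direction and 6.21% lower. These were the lead probe of Psph, all 3 probes of Phgdh, Psat1, the lead probe of Shmt1, Shmt2, Mthfd2 and Asns. Of them, the lead and dimmest probes of Phgdh and the probes of Psat1, Shmt2 and Asns had 1 mutant array. When the 2 mutant arrays were fitted on their own, 8 member probes were called, against 10.7% of all probes. The number was also 8 when either array of untreated cells was left out, against 9.91%. In both cases 4 of the 8 had 1 array, which is assumed to vary like other probes. The median log2 ratio of the 10 lead probes was -0.71, against 0.01 over all probes.

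The position of the mutant ratios relative to 0 depended on the normalization. Without the loess curve, with each array only centred on its median, Psph stood at 0.25, Phgdh at 0.21, Psat1 at 0.55, Shmt2 at 0.14, Mthfd2 at 0.03 and Asns at 0.21. For Phgdh, Psat1, Shmt2 and Asns this was replicate 1 alone. The other probes of like intensity stood higher still. Around these 6 genes, the median of all probes within 0.5 of the lead probe's mean log2 intensity was between 0.81 and 1.07. Relative to that median, the 6 genes lay between -0.92 and -0.43. The replicates differed without loess. With marked spots kept, the 6 genes lay at 0.14 to 0.56 on replicate 1 and at -0.77 to -0.095 on replicate 2.

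**Figure D2:**
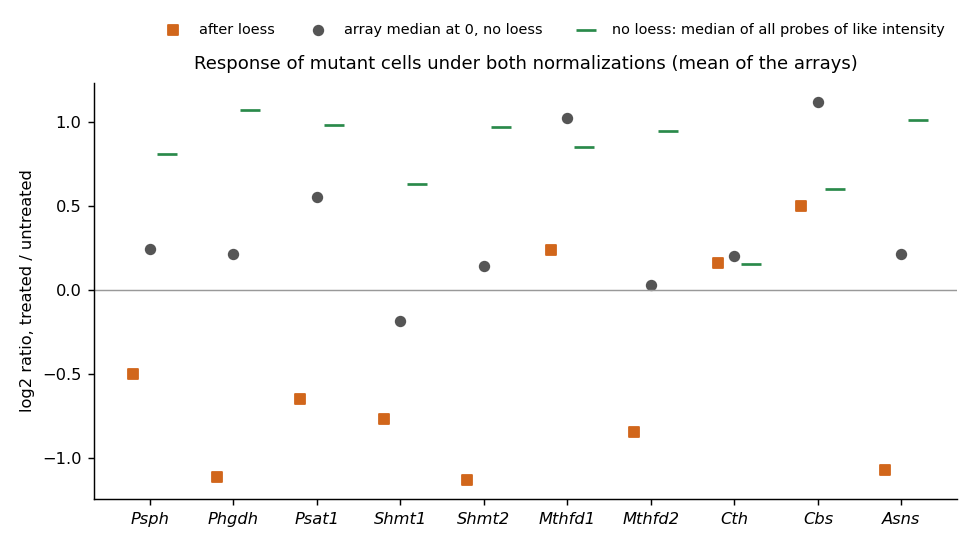
The log2 ratio of treated over untreated mutant cells (vertical axis) is plotted for the lead probe of each gene, after loess (squares) and with the array median at 0 and no loess (circles). Bars mark the median of all probes of like intensity without loess. Psph, Phgdh, Psat1, Shmt2, Mthfd2 and Asns lie above 0 without loess, below their bar, and below 0 with it. The values of Phgdh, Psat1, Shmt2 and Asns come from replicate 1 alone.

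The difference between the 2 responses (mutant minus wild type) compares arrays on which treated RNA carried the same dye, so that a preference of a probe for 1 dye cancels. It was -2.54 for the lead probe of Psph (SE 0.23, unadjusted p = 1.04e-05, limma adjusted p = 0.157), which is 5.81-fold. It was -2.37 for Cth (SE 0.26, adjusted p = 0.199), -2.04 for Mthfd2 (SE 0.25, adjusted p = 0.234) and, with 1 array of each genotype, -2.51 for Asns (SE 0.40, adjusted p = 0.552) and -1.59 for Shmt2 (SE 0.39, adjusted p = 0.763). Of the genes without a fitted value, Psat1 gave -1.67 (SE 0.23, adjusted p = 0.193) and the lead probe of Phgdh -1.46 (SE 0.33, adjusted p = 0.428) with marked spots kept. None of these passed the threshold. The values of Shmt1 (0.51, SE 0.32, 1 wild type array), Mthfd1 (-0.30, SE 0.25) and Cbs (0.59, SE 0.33) lay nearer to 0.

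**Figure D3:**
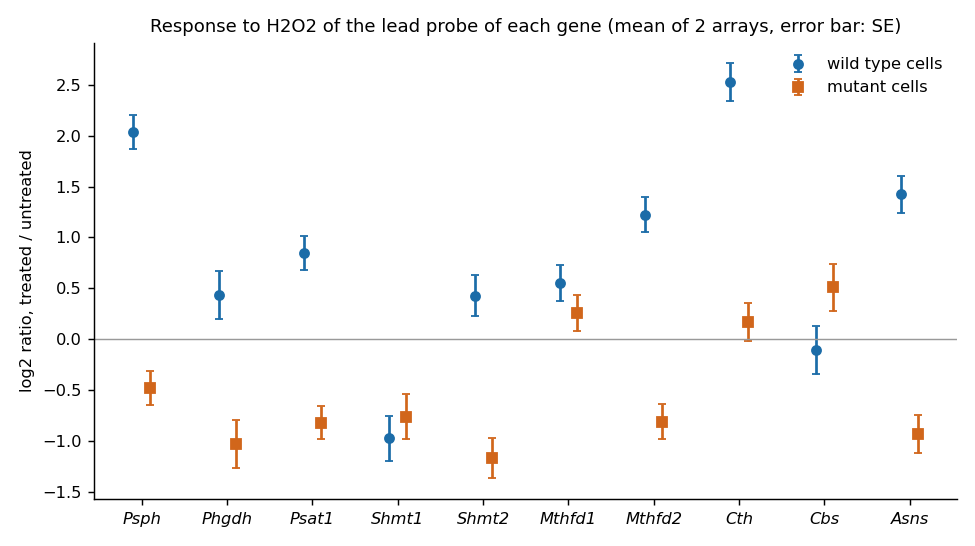
The log2 ratio of treated over untreated cells (vertical axis) is plotted for the lead probe of each gene in wild type cells (circles) and mutant cells (squares) as the mean of 2 arrays with marked spots kept; bars are the SE from limma. Psph, Phgdh, Psat1, Shmt2, Mthfd2 and Asns lie above 0 in wild type and below 0 in mutant cells after loess. With median centring these genes lie above 0 on mutant replicate 1 and below 0 on replicate 2.

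At an unadjusted p under 0.05, 6 of the 11 member probes with a fitted difference passed, all lower in mutant cells, against 5.94% of all probes in either direction and 2.67% lower. Limma called 0 of all 40267 probes after adjustment. When the 4 treatment arrays were fitted without the arrays of untreated cells, 6 member probes were called, against 1.27% of all probes. For 3 of them both genotypes had 2 arrays, and the adjusted p was 0.0012 for Psph, 0.0017 for Cth and 0.00199 for Mthfd2, with values from there to 1 over all alternatives. The other 3 (Asns, Shmt2 and the second probe of Psph) had a genotype with 1 array, which is assumed to vary like other probes. Leaving out either array of untreated cells gave the same 6, against 1.27% of all probes. This is no further test, because a single array left in that group adds nothing to the estimate of the spread. Leaving out a treatment array left no probe of the whole array called, members included. The direction of the difference was kept with median centring for each lead probe with a fitted value, and the values were -2.36 for Psph, -2.59 for Cth, -1.74 for Mthfd2, -1.82 for Asns and -0.89 for Shmt2.

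Whether the genotypes already differed before treatment was asked on the 2 arrays that held untreated cells of both. The ratios are given as Cy5 over Cy3, which is likely mutant over wild type. The labels give the opposite direction, with wild type in Cy5 on both arrays. The dyes were not swapped between the 2 arrays, so a preference of a probe for 1 dye stays in these ratios. The direction was set by the study's list for mutant over wild type, which runs as Cy5 over Cy3, and by the Cy3 channel of the treatment arrays, where untreated mutant and wild type RNA carry the same dye. Over 8458 probes with a mean log2 intensity above 6, the ratios correlated across genes with the difference of mutant minus wild type within Cy3 (r = 0.757), and 70.6% had the same sign. Of the 532 of them with an adjusted p under 0.005 on the arrays of untreated cells, 98.9% had the same sign. The Cy3 intensities themselves correlated with those of untreated wild type cells at r = 0.958 and 0.946, and with those of untreated mutant cells at 0.901 and 0.899. These checks rest on the labels of the treatment arrays, and genes are not independent replicates.

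Asns, Psph, Shmt2, Mthfd2 and Cth were higher in the likely mutant channel. Asns had log2 ratios of Cy5 over Cy3 of 1.74 and 1.25, a fold change of 2.74 (SE 0.20 on the log2 scale, adjusted p = 0.0118). The lead probe of Psph had 1.52 and 1.22, a fold change of 2.55 (SE 0.16, adjusted p = 0.00352), and its second probe 1.40 and 0.69 (adjusted p = 0.0298). Both genes thus stood above 1 on the log2 scale on each array by their lead probe.

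Shmt2 had ratios of 1.06 and 1.74, of which the first was marked. Its fitted value of 1.72 came from 1 array (SE 0.27, adjusted p = 0.0262), and with both arrays it was 1.40 (SE 0.20, adjusted p = 0.0043). Mthfd2 had ratios of 0.97 and 1.36, a fold change of 2.19 (SE 0.17, adjusted p = 0.0076). Cth had 0.79 and 1.16, a fold change of 1.95 (SE 0.18, adjusted p = 0.0143). On both arrays the 2 mitochondrial folate enzymes and the cysteine-releasing enzyme lay above 0.

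The early enzymes of serine synthesis and Cbs did not pass the test. The lead probe of Phgdh gave -0.76 and 0.19 and its dimmest probe -1.23 and 0.26, so that the 2 arrays lay on opposite sides of 0. Its second probe gave 0.32 and 0.22. Psat1 gave 0.35 and 0.40 (0.34, SE 0.17, adjusted p = 0.233), and Cbs -0.69 and -0.66 (-0.69, SE 0.24, adjusted p = 0.085).

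Lower in Cy5 were the second, dimmer probes of the cytosolic folate enzymes. The second probe of Shmt1 had ratios of -1.24 and -1.27 (-1.26, SE 0.16, adjusted p = 0.00618), while its lead probe had -0.74, a marked spot, and -0.13. The fit of the lead probe came from 1 array (-0.14, adjusted p = 0.736), and with both arrays it was -0.43 (adjusted p = 0.201). The second probe of Mthfd1 had -1.33 and -0.59 (-0.98, SE 0.25, adjusted p = 0.046), while its lead probe had -0.07 and -0.38 (adjusted p = 0.349). For both genes the call thus rests on 1 of 2 probes. With median centring the lead probes of Phgdh, Shmt1 and Mthfd1 had values of 0.24, 0.024 and 0.17, above 0. The value of Shmt1 came from 1 array. With marked spots kept, each of these lead probes had 1 array on either side of 0.

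In all, limma called 8 of the 15 member probes on these arrays, 6 higher and 2 lower, against 19.6% of all 41099 probes in either direction, 9.83% higher and 9.78% lower. By the study's rule for this comparison (a mean log2 intensity above 6 and an adjusted p under 0.005) it called 1, the lead probe of Psph, against 1.76% of all probes. The median of the 10 lead probes was 0.65, against 0.00 over all probes. The 2 arrays fitted on their own called 2 member probes, where 2057 of all 41099 probes were called, and the count was 5 without either mutant treatment array, against 9.01% of all probes. Markers of dividing cells and of fibroblasts moved with this comparison: 4 of 8 dividing-cell markers were called lower and 5 of 8 fibroblast markers higher in Cy5, with medians of -0.65 and 1.12. Summed over the 8 genes of each list, dividing-cell markers gave 8237 and 8257 in Cy3 against 4620 to 4968 in Cy5, and fibroblast markers 50420 to 51720 against 81130 to 99680. None of the markers of either list was at 0, and their part in the result was not tested.

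**Figure D4:**
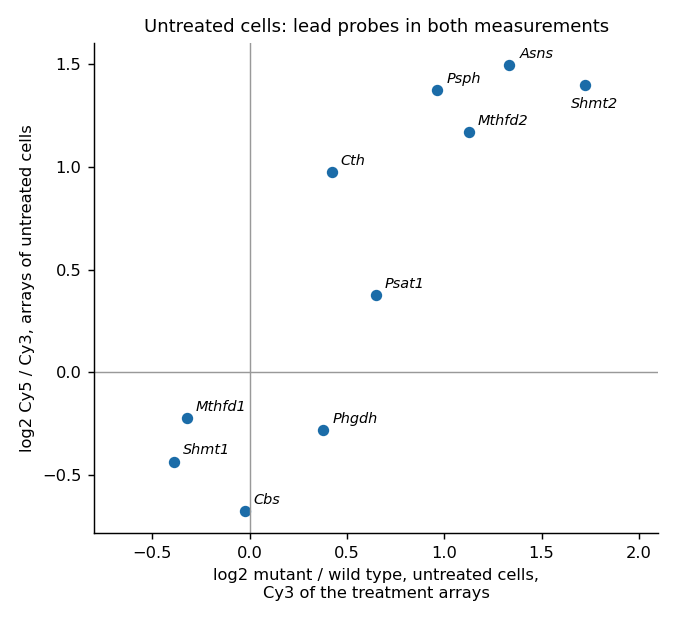
Each point is the lead probe of 1 gene in untreated cells with marked spots kept. The horizontal axis is the log2 difference in Cy3 intensity (mutant minus wild type, treatment arrays), and the vertical axis is the log2 ratio of Cy5 over Cy3 on the arrays of untreated cells. Asns, Shmt2, Psph and Mthfd2 lie at the upper right, and Phgdh is the gene with opposite signs. With median centring the 2 arrays of untreated cells gave -0.08 and 0.57 for Phgdh, 0.45 and -0.12 for Mthfd1 and -0.43 and 0.02 for Shmt1.

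The same genes were followed within single dyes, as log2 intensities scaled between arrays, with marked spots kept. For Psph, Cy3 intensities were 7.91 and 7.36 in untreated wild type cells and 8.62 and 8.57 in untreated mutant cells. Its Cy5 intensities were 10.07 and 9.28 in treated wild type cells and 8.12 and 8.11 in treated mutant cells. The order of the genotypes was thus reversed between untreated and treated cells, with no overlap in either dye. Asns gave 9.61 and 9.23 in untreated wild type cells against 10.82 and 10.69 in untreated mutant cells, and 11.09 and 10.60 in treated wild type cells against 9.75 and 9.89 in treated mutant cells. Mthfd2 gave 9.24 and 8.56 against 10.13 and 9.92, and 10.59 and 9.67 against 9.34 and 9.09. The size of the gap in untreated cells moved with the marked spots. It was 0.96 for Psph and 1.12 for Mthfd2 with them kept, and 0.49 (SE 0.35) and 0.72 (SE 0.35) without them. Asns had no fitted value without them.

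For Cth the gap between genotypes was wide in treated cells and narrow in untreated cells. Its Cy3 intensities were 5.22 and 5.16 in untreated wild type cells and 5.36 and 5.85 in untreated mutant cells, and its Cy5 intensities were 7.97 and 7.46 in treated wild type cells and 5.58 and 5.97 in treated mutant cells. Shmt2 was the reverse, with 8.91 and 9.12 against 10.65 and 10.83 in untreated cells and 9.40 and 9.49 against 9.52 and 9.61 in treated cells. In untreated cells limma called 0 of the 5 member probes with a value on all 4 arrays, against 0.144% of all probes, and 0 at an unadjusted p under 0.05, against 9.94%. With marked spots kept it called 0 of 15, against 0.715%, and 5 passed at an unadjusted p under 0.05, all higher in mutant cells, against 5.96%.

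In treated cells limma also called 0 of 5 member probes, against 0.127% of all probes. At an unadjusted p under 0.05 there were 4, all lower in mutant cells, against 6.46%. Psph had a difference of -2.04 (SE 0.38, adjusted p = 0.0985). Cth had -2.29 (SE 0.40, adjusted p = 0.0881), with a Cy5 reading well above background on 1 of the 2 mutant arrays. With marked spots kept the values were -1.56 for Psph and -1.94 for Cth, since the scaling between arrays moved with the marked spots, and the median over all probes went from -0.10 to 0.03. On simulated data the test within 1 dye recovered known changes only at a spread well below that of these arrays (median residual SD 0.342 in Cy3 and 0.366 in Cy5), so an absent call within a dye says little.

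Among 65 entries of lists of related genes on the array, 3 of the 61 with a value were called in wild type cells, all higher, against 0.119% of all probes called higher. In mutant cells 0 were called, as for all probes. The first was Aldh1l2 (D330038I09Rik on the array), the mitochondrial enzyme that releases one-carbon units from folate as CO2, at 2.52 (SE 0.19, adjusted p = 0.0229). The others were from a list of the ATF4 branch, the pseudokinase gene Trib3 at 3.07 (SE 0.23, adjusted p = 0.0404) and Chac1 (1810008K03Rik), which degrades glutathione, at 3.18 (SE 0.22, adjusted p = 0.0229). In mutant cells their values were -0.37 for Aldh1l2, -2.38 for Trib3 (from 1 array) and -0.78 for Chac1, with adjusted p-values of 0.216 to 0.488.

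The lists differed in their medians. Over the 7 genes of the ATF4 branch with a value it was 0.92 in wild type cells and -1.06 in mutant ones. With marked spots kept, the medians of this list were 0.79 and -0.89. Atf4 itself had values only with marked spots kept, -0.32 in wild type cells and -0.89 in mutant ones, and neither passed the test. The remaining lists had medians near 0 in both genotypes, -0.27 and -0.16 for serine and glycine metabolism, 0.06 and -0.14 for the folate cycle, 0.09 and -0.04 for the methionine cycle, and 0.28 and -0.03 for cysteine and glutathione. For markers of dividing cells the median was 0.54 in wild type cells (6 with a value) and 0.26 in mutant cells, with 0 called in each.

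On the arrays of untreated cells 16 of the 64 list entries with a value were called higher in Cy5 and 9 lower, where 9.83% of all probes were called higher and 9.78% lower. The 5 largest were Trib3 (4.89, from 1 array), Aldh1l2 (3.01), Aspg, an asparagine-degrading enzyme (-2.69), Ddit3, a transcription factor of the integrated stress response (2.35, from 1 array), and Chac1 (2.33), with adjusted p-values of 0.000591 to 0.0119. Of the ATF4 branch, 5 of the 8 genes with a value were called, all higher. Of the folate cycle, 5 were called higher and 4 lower. Of cysteine and glutathione metabolism, 4 were higher and 2 lower, the latter being Gclc and Gclm, which form the enzyme of the first step of glutathione synthesis. The methionine cycle had 0 of 15 called by limma. At an unadjusted p under 0.05 it had 3 higher and 4 lower, near the shares over all probes (18.1% higher and 17.9% lower).

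**Figure D5:**
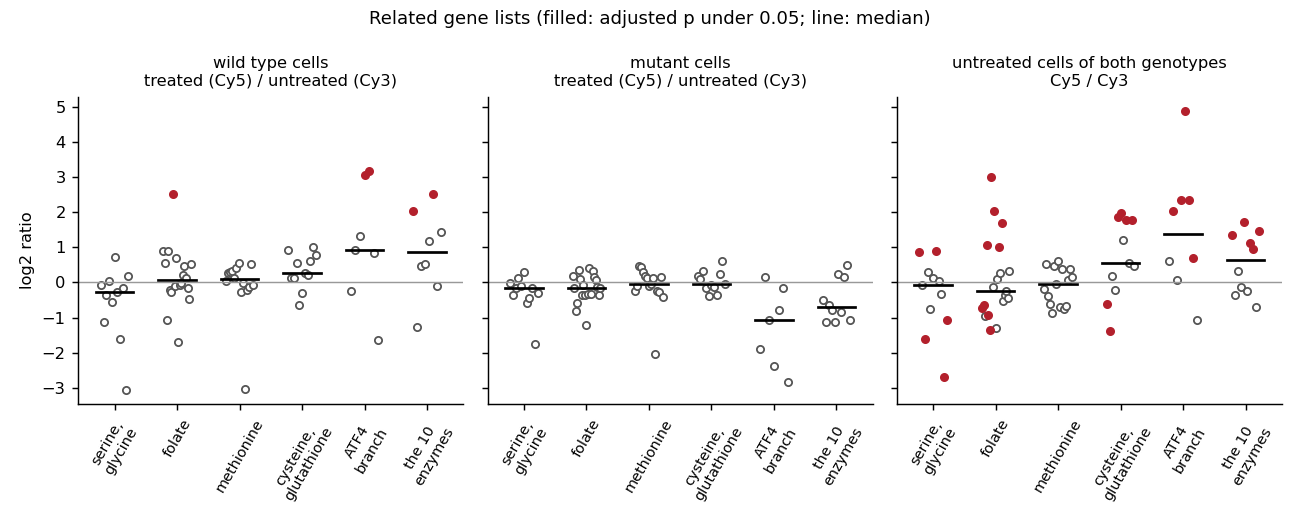
Each symbol is a gene of a related list or the lead probe of 1 of the 10 enzymes, plotted by its log2 ratio (vertical axis) in wild type cells, mutant cells and untreated cells of both genotypes; filled symbols have an adjusted p under 0.05 and lines are medians. The ATF4 branch has medians of 0.92, -1.06 and 1.37 in the 3 panels, and the lead probes of the enzymes 0.86 (8 with a value), -0.71 and 0.65 (10 each). With marked spots kept, the medians of the ATF4 branch are 0.79, -0.89 and 0.75. In the middle panel the side of 0 of Psph, Phgdh, Psat1, Shmt2, Mthfd2 and Asns depends on the loess curve. With median centring they lie above 0, where Phgdh, Psat1, Shmt2 and Asns have 1 array. With marked spots kept, all of these genes then lie below 0 on mutant replicate 2.

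The median profile of the 10 lead probes over the 6 arrays was 0.76 and 0.66 in wild type cells, -0.64 and -0.82 in mutant cells and 0.57 and 0.78 in untreated cells. Psat1 was the member closest to it, at a Euclidean distance of 0.51, and Cbs the farthest, at 2.95. Among 13586 other genes with a mean log2 intensity above 6, the nearest were Nqo3a2 (now Cyb5r1, 0.37), Leprotl1 (0.46), the uracil-DNA glycosylase Ung (0.48), the asparaginyl-tRNA synthetase Nars (0.49) and 2610034N03Rik (0.53). Nars had ratios of 0.35 and 0.44, -0.80 and -0.79, and 0.61 and 0.82 on the same arrays.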

How the data were processed

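The authors scanned the arrays and deposited, per the file headers, Feature Extraction's mean intensity and local background of all spots for both dyes, with outlier flags. The authors also deposited its log10 ratios and, for the whole series, log2 ratios (Cy5 over Cy3, background subtracted, loess), used as alternatives. The latter correlated with the ratios computed here at r of 0.999486 or more, and 2466 probes of 1 untreated array had no value there. The labels give total RNA and the study's methods cytoplasmic RNA.

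Here the local background was subtracted with limma 3.58.1 (R 4.3.3), and a loess curve was taken out of each array's log2 ratios, with control and outlier-marked spots at weight 0. Marked spots were then left out, saturated spots kept and spots of 1 probe averaged. All 6 arrays were fitted together (lmFit, eBayes) with 1 coefficient per group, which left 3 residual degrees of freedom and a prior of 3.98. Two-sided p-values received Benjamini-Hochberg adjustment over all probes with a value, and a probe was called at an adjusted p under 0.05. Single dyes were compared after Aquantile scaling, on probes with a value on all 4 treatment arrays. The number of arrays limits the precision. Agreement between arrays of a group, as a correlation over probes, was 0.783 in wild type, 0.624 in mutant and 0.542 in untreated cells.

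The functions were tested on simulated data. The ratio fits recovered most of the larger changes put in. The single-dye test called none of them at the spread used for the ratios, and most of them only at a reduced spread. Tables were read with the R package data.table (1.17.8). Promoters and plots used Python 3.11.15, pandas 2.3.3 and matplotlib 3.10.9. The members, the lists of related genes (ATF4 branch, serine and glycine, folate, methionine, cysteine and glutathione), the markers and the alternatives were chosen with earlier results of these data known. Named are all members and probes, at most 5 called genes of the related lists per comparison by size, Wrn, and the 5 genes nearest to the members' median profile. The genes named from the called lists in addition, Gclc, Gclm, and the uncalled Atf4, were chosen after their values were seen.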

Additional observations from a re-analysis of the deposited data

Results flagged for a closer look

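For 6 lead probes, every wild type array moved one way after H2O2 and every mutant array the other, with marked spots kept and after loess, against 11.9% of all probes in either orientation and 5.60% in this one. The differences between the responses (mutant minus wild type, log2) were -2.52 for Psph, -1.46 for Phgdh, -1.67 for Psat1, -1.60 for Shmt2, -2.04 for Mthfd2 and -2.36 for Asns. Limma's test of these differences gave adjusted p-values from 0.109 to 0.428 with marked spots kept, so none passed the threshold. With median centring in place of loess, 0 of the 10 lead probes met this description, against 2.45% of all probes.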

How the results depend on the processing

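Of 612 single-gene values under alternatives, 516 kept their direction and side of the threshold, 62 passed it in addition, 16 no longer did and 18 reversed. Some of these could not change direction. For ratios, leaving out an array of another group kept the log2 value and moved only its p-value. The alternatives also overlap, so these counts are not independent checks. In wild type cells the count of 2 called member probes became 6 with marked spots kept, against 2.39% of all probes. It became 5 with normexp background correction and 8 in a fit of those arrays alone, the latter against 25.1% of all probes. It was 6 from the authors' series table and 4 with marked spots in the loess curve only (an alternative chosen after seeing the data). With the study's thresholds (fold change above 2, mean log2 intensity above 6, adjusted p under 0.005) put on the limma fit used here, it was 0, as for all 40303 probes tested. The study itself reported altered genes by these thresholds from its own limma analysis, which was not repeated here. It ran from 0 to 8 when single arrays were left out. The count of 0 in mutant cells became 8 in a fit of those arrays alone, against 10.7% of all probes. Its range over arrays left out was 0 to 8. The count for the difference became 6 in a fit of the treatment arrays alone, against 1.27% of all probes, with a range of 0 to 6. In these comparisons each count of 0 with an array left out went with no call over all probes. On the arrays of untreated cells the count of 8 became 2 in a fit of those arrays alone, 3 with Feature Extraction's log ratios and 1 by the study's rule, with a range of 5 to 9. Within Cy5 the count of 0 became 2 above a mean log2 intensity of 6, with a range of 0 to 2. Within Cy3 it was 0 under every alternative run.

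The replicate numbers shared by the treatment arrays did not pair them (r = -0.02 between deviations). With a replicate block the count was 0 for the difference, 0 within Cy3 and 1 within Cy5 (Cth, adjusted p = 0.039, with 0.000402 to 0.815 over its alternatives).

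Median centring in place of loess reversed Cbs in wild type cells (0.35), in mutant cells Psph (0.25), Phgdh (0.21), Psat1 (0.55), Shmt2 (0.14), Mthfd2 (0.030) and Asns (0.21), and on the arrays of untreated cells Phgdh (0.24), Shmt1 (0.024) and Mthfd1 (0.17). Of these, the mutant values of Phgdh, Psat1, Shmt2 and Asns and the untreated value of Shmt1 came from 1 array. The mean of both probes gave -0.057 for Mthfd1 in mutant cells, and normexp -0.069 for Cbs within Cy5. With single arrays left out, Cbs ran from -0.51 to 0.32 in wild type cells (0.32 without wild type replicate 1) and from -0.29 to 0.47 within Cy5 (-0.23 without wild type replicate 1, -0.29 without mutant replicate 2). Cth ran from -0.34 to 0.49 within Cy3 (-0.34 without wild type replicate 1, -0.27 without mutant replicate 2), and Phgdh from -0.86 to 0.17 on the arrays of untreated cells (0.17 without replicate 3). A slide or extraction block was not run, because each array was its own slide and extraction time separated the treatment arrays from those of untreated cells.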

Other observations

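Markers of further cell types of the embryo were also read. The 6 hepatocyte markers summed to 661.2 to 1960 over the dyes and arrays, and the 4 endothelial markers to 78.69 to 216.1. The 4 red blood cell markers summed to 610.6 and 4206 in untreated wild type cells and to at most 784.3 in the Cy3 of the other arrays, so that 1 wild type array stood apart. The 4 epithelial markers on the array reached at most 383.8, and the 5 skeletal muscle markers lay between 1717 and 4529. The part of any of these lists in the results was not tested.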
